A study of Mus musculus with 6 samples.

Results

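Chromatin accessibility was examined at 10 genes of the AP-1 and immediate early group, Fos, Fosb, Fosl1, Fosl2, Jun, Junb, Jund, Atf3, Egr1 and Maff, in nuclei of mouse skeletal muscle fibres after knockdown of Yap. The genes were chosen by symbol in the deposited table of windows around transcription start sites, in which 9 of the 10 have a row among 49366 windows. Jun has no row in that table and was read from the deposited table of peaks. No measured value entered the choice.

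AP-1 is a family of dimeric leucine zipper transcription factors that join a Fos protein to a Jun protein, or pair Jun proteins with each other, and bind the palindrome TGACTCA or TGAGTCA. Many of its genes are immediate early genes, which need no new protein synthesis to be transcribed and respond within minutes to growth factors, stretch or contraction through serum response factor at CArG boxes and CREB at cAMP response elements (CRE). Yap is a coactivator of the Hippo pathway that binds DNA through TEAD factors, and AP-1 factors occupy many of the enhancers bound by TEAD in other cell types.

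Both groups came from male C57BL/6J mice, 8 weeks old per the labels, injected with AAV6 vectors, a virus type that transduces muscle fibres, and the muscles were taken 28 days after injection. One gastrocnemius and tibialis anterior side received a short hairpin RNA against Yap (Yap-shRNA) and the contralateral side one against lacZ (LacZ-shRNA), a bacterial gene that the mouse lacks, so the controls carried a virus and a hairpin too. Each replicate pooled 4 gastrocnemius and 4 tibialis anterior muscles, and nuclei carrying PCM1, a protein at the nuclear envelope of muscle fibres, were sorted before the transposase reaction of ATAC-seq. There were 3 replicates in each group, so p-values measure the spread between pools and not between single animals, and the labels do not say whether pools with the same number came from the same mice. The Yap hairpin acts on RNA, and the counts at the Yap promoter do not check the knockdown. One line of the series description speaks of cardiomyocytes, while the sample labels name limb muscles.

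Counts in windows ran from 3326803 to 10319467 per library, with LacZ-shRNA replicates 1 and 2 the shallowest, and counts in peaks from 2588520 to 6871176. The labelled cell type was checked on windows of 14 muscle fibre genes. The median of the 14 was at percentile 98.5 of all windows per kb. The highest were Ckm, Tnnt3 and Acta1, at percentiles 99.9, 99.8 and 99.8. The myosin genes Myh4, Myh2 and Myh1 lay at 97.3, 63.5 and 43.1, and 38.6% of the Myh4 and 50.3% of the Myh1 window overlaps windows of other genes. Median percentiles of the other lists were 41.7 for fibroblast, 67.0 for Schwann cell, 68.6 for endothelial and 71.9 for leukocyte genes. Those of smooth muscle and satellite cell genes were 77.3 and 81.7, and no listed marker was at 0 in any library. Summed over each list, the 9 fibroblast windows held 243 to 283 CPM (counts scaled to a common library size, by TMM factors) in LacZ-shRNA and 275 to 334 in Yap-shRNA, and 9 of 10 leukocyte genes held 152 to 183 and 177 to 181. The 8 endothelial windows held 301 to 311 and 294 to 312, the 8 satellite cell windows 209 to 264 and 242 to 248, the 6 smooth muscle windows 105 to 116 and 110 to 115, the 5 Schwann cell windows 100 to 125 and 106 to 124, and the 14 muscle fibre windows 1585 to 2210 and 1727 to 1998. The part of these cells in the member values was not tested.

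The promoters of inducible members are shown because they hold different ones of the elements through which such genes are known to be switched on. RefSeq promoter entries on GRCm38.p6 were used for 8 of the 10 genes, in 10 entries. Fosl1 had none in the set used, and Egr1 lies on chromosome 18, which was not searched. The 350 bases before each start were searched on both strands for the CArG box, the CRE (TGACGTCA), its short form (TGACG, which also lies inside the CRE), the AP-1 palindrome, the TEAD element (ACATTCC), the TATA box (TATAAA) and the GC box (GGGCGG). Capitals mark a CArG box, a CRE or its short form on either strand, and in Fos also the TATA box.

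For Fos, which encodes the founding partner of Jun proteins, the stretch is chr12:85473571-85473870 on the plus strand, ending 20 bases before the start.

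Fos: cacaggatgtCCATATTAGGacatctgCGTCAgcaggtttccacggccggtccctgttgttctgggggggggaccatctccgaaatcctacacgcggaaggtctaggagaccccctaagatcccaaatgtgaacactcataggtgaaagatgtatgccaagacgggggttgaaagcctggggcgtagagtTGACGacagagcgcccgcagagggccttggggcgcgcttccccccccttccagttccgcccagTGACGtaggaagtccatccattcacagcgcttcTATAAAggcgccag

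For Fosb, a close relative of Fos that lies on the minus strand, the 300 bases before the start are chr7:19310046-19310345.

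Fosb: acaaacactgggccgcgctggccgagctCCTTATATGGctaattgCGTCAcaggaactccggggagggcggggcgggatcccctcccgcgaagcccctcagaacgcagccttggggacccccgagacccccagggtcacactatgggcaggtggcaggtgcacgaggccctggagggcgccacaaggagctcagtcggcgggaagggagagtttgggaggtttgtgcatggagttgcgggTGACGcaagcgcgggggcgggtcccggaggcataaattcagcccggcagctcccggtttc

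Both carry a CArG box followed by a short CRE. The CArG box begins 309 bases upstream of the start in Fos and 272 in Fosb, and the short CRE 292 and 255 bases upstream. Of the 8 genes these 2 held a CArG box, against 2.02% of 32851 promoters searched in the same way. The motifs and the search length were chosen after the member promoters were read, so this contrast is a description and not a test. The TATA box was found in Fos alone of the 8, 33 bases upstream, against 17.2% of promoters. The promoter of Junb, which encodes a Jun protein with weaker activating power, is chr8:84978749-84979048 on the minus strand.

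Junb: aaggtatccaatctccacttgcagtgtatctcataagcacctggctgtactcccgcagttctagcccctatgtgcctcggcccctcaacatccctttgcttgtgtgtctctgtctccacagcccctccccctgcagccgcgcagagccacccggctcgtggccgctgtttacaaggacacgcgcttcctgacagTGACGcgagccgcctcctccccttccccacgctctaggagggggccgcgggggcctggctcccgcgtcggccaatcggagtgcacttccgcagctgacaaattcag

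Its only short CRE lay 106 bases upstream. The promoter of Atf3, a stress-induced repressor and activator of the ATF family, is chr1:191183334-191183633 on the minus strand and holds a short CRE 7 bases before the start.

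Atf3: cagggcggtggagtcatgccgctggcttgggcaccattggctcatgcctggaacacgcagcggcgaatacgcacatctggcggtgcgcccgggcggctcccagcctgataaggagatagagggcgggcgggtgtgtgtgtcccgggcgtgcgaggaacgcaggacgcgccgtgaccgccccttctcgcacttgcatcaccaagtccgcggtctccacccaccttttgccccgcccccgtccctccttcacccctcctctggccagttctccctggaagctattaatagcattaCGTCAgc

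The whole CRE was found in 1 of the 10 entries, against 1.73% of all promoters. That entry is of Maff, which encodes a small Maf protein with a leucine zipper but no activation domain. The stretch is chr15:79347220-79347519 on the plus strand, inside an intron of Maff, with the CRE 29 bases before one of its starts.

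Maff: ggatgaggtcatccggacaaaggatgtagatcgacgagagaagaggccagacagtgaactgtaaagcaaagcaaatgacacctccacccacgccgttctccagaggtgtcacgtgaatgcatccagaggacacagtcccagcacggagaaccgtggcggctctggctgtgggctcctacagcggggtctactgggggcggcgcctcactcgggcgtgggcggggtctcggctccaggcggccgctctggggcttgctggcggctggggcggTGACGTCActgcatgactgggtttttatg

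The short CRE was found in 6 of the 8 genes and 7 of the 10 entries, against 21.4% of promoters. A GC box was also found in 6 genes and 7 entries, against 35.3%. These shares are per promoter entry, and GC content was not matched. Like the CArG box share, they do not test enrichment, because the motifs and search length were chosen after the promoters were read. The RefSeq start of Jund lies 1210 bases upstream of its one GENCODE start, so the 350 bases searched for Jund are not those before the start used for its window, and they held none of the motifs. Neither the AP-1 palindrome (5.81% of promoters) nor the TEAD element (4.59%) occurred in these 350 bases of any of the 8. A match is a description of the letters, and the absence of one says nothing about binding of the factor.

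Levels of the members were compared per length over 8 windows. Jund was left out of the order, because 63.0% of its window is shared with that of another transcript and reads there are not assigned: its level was 12.05 CPM per kb over the whole window and 32.6 over the 740 bases that are not shared. Of the 8 windows, 7 lay in the top 5% of all windows per kb, and Fosl1, a Fos relative induced later than Fos after stimulation, lay lower. The order ran Egr1, Fosl2, Junb, Fos, Fosb, Atf3, Maff and Fosl1, from 29.1 ± 3.60 CPM per kb (SD over 6 libraries) to 8.63 ± 1.59. The median of the 8 was 16.8 CPM per kb, against 4.45 over all windows and 15.0 over the windows of 35 other immediate early genes. Egr1, a zinc finger factor induced by serum and contraction, was above Fosl2 in 6 of 6 libraries, at 29.1 against 21.6 CPM per kb. Atf3 was likewise above Maff in 6 of 6 libraries and Maff above Fosl1 in 6 of 6. The other neighbours changed places between libraries. Fosl2 exceeded Junb in 4, Junb exceeded Fos in 5, Fos exceeded Fosb in 4 and Fosb exceeded Atf3 in 3 of 6. The size of these differences was not tested. For comparison, the median of the 14 fibre gene windows was 18.7 CPM per kb, from 4.10 at Myh1 to 41.0 at Ckm. Some fibre windows are partly shared too, with 50.3% at Myh1 and 32.9% at Ckm. Reads in those stretches are not assigned, which lowers such levels. Among the members, each window merges all starts of a gene, and per kb of promoter peak the order differed. Egr1 was at 48.4, Atf3 at 41.1, Fosl2 at 41.0, Fos at 30.4 and Junb at 28.5 CPM per kb of peak. Jun and Jund, which are not in the window order, were at 38.5 and 38.4, in peaks that also span the start of another transcript. Fosb was at 28.6 and 24.4 in its peaks and Maff at 24.3, and Fosl1 had no promoter peak. Accessibility is not expression, and open starts do not show that the genes were transcribed.

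**Figure D1:**
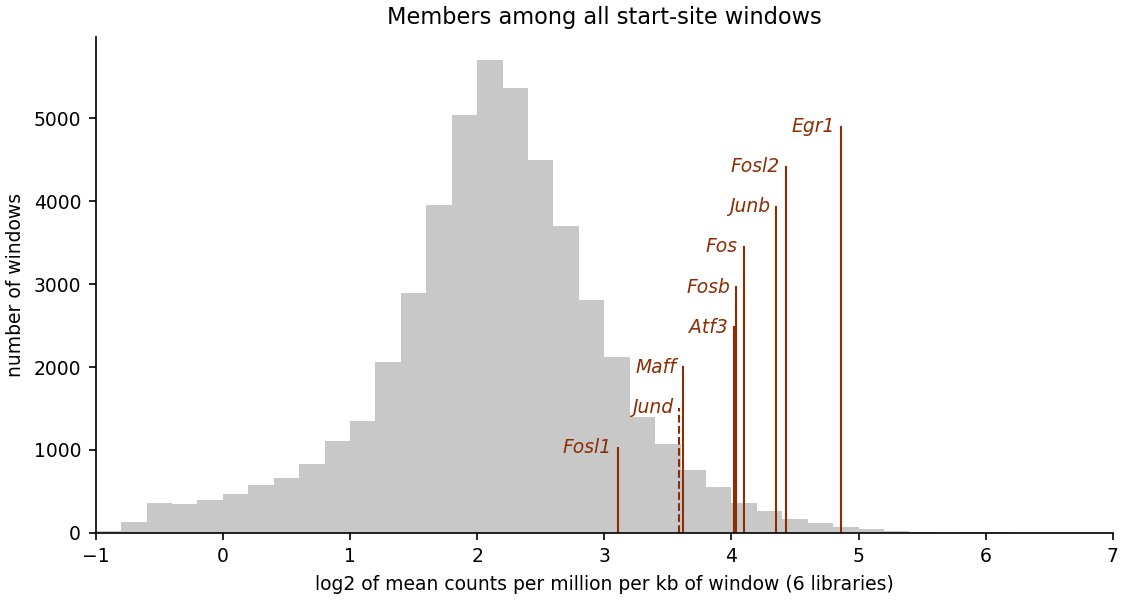
Histogram of the mean level of each start-site window, as log2 of CPM per kb of window over the 6 libraries (x axis), with the number of windows on the y axis and a line for each of the 9 members, whose heights only separate the names. The line for Jund, 63.0% of whose window is shared, is dashed. Fosl1 sits at 8.63 CPM per kb, within the right flank of the histogram, and Egr1 at 29.1 lies beyond nearly all windows.

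None of the 9 member windows passed an adjusted p of 0.05 in the comparison of Yap-shRNA with LacZ-shRNA (edgeR quasi-likelihood test), where 11 of 49366 windows did (0.0223%). None had an unadjusted p under 0.05, against 4.9% of all windows, and in none did the groups separate without overlap, against 10.1%. The likelihood-ratio test in edgeR called none of the 9, and DESeq2 none of the 8 to which it gave an adjusted p, which left out Fosl1. Of the 9 log2 fold changes, 5 were below 0 and 4 above, with a median of -0.07 against -0.01 over all windows. The lowest bound of the 9 intervals (95%) was 0.723-fold, at Fosl2, and the highest 1.52-fold, at Fosl1, with the other 8 reaching at most 1.30-fold. A missed threshold does not show that the groups were alike, and in sorted bulk nuclei a change in the share of nuclei cannot be told apart from a change in each nucleus.

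In the Fos family, Fos held 42.2, 54.5 and 58.7 CPM in LacZ-shRNA replicates 1 to 3 and 57.4, 50.3 and 48.0 in Yap-shRNA. The groups overlapped fully and the log2 fold change was 0.00 ± 0.14 (SE; 95% interval -0.28 to 0.29). Its gene body spans chromosome 12, 85473890 to 85477273, on GRCm38.

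Fosb (chromosome 7, 19302696 to 19310051) held 33.1, 37.8 and 48.6 CPM in LacZ-shRNA and 40.8, 43.6 and 38.0 in Yap-shRNA. The lowest and the highest library were both controls, and the log2 fold change was 0.02 ± 0.14 (95% interval -0.27 to 0.31).

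Fosl1 (chromosome 19, 5447547 to 5455946) held 14.7, 23.1 and 18.6 CPM in LacZ-shRNA and 20.2, 20.9 and 25.6 in Yap-shRNA. It had the largest upward estimate among the 9, at 0.27 ± 0.17 on the log2 scale (95% interval -0.06 to 0.61), with 1 control library above 2 of the Yap-shRNA libraries. The estimate was 0.13 without LacZ-shRNA replicate 1 and 0.40 without LacZ-shRNA replicate 2. Its adjusted p was 0.946 in edgeR, and it was the one member without a peak within 1 kb of a start.

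Fosl2 (chromosome 5, 32135801 to 32157842), a Fos relative without a strong activation domain, held 75.4, 113 and 113 CPM in LacZ-shRNA and 89.3, 85.1 and 91.3 in Yap-shRNA. Of the controls, 2 stood above the Yap-shRNA libraries and 1 below them. The log2 fold change of -0.18 ± 0.14 (95% interval -0.47 to 0.11) was the largest downward estimate among the 9 windows. It was -0.35 without LacZ-shRNA replicate 1 (adjusted p = 0.111 in edgeR) and -0.07 without LacZ-shRNA replicate 3.

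In the Jun family, Junb (chromosome 8, 84974484 to 84978718) held 73.4, 85.9 and 98.1 CPM in LacZ-shRNA and 75.4, 81.2 and 77.2 in Yap-shRNA. The Yap-shRNA libraries lay inside the range of the controls, with a log2 fold change of -0.14 ± 0.14 (95% interval -0.42 to 0.13). The estimate was -0.26 without LacZ-shRNA replicate 1 and -0.02 without LacZ-shRNA replicate 3.

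Jund (chromosome 8, 70698949 to 70700616), the Jun protein that is least inducible, held 21.0, 21.1 and 30.9 CPM in LacZ-shRNA and 26.9, 21.2 and 23.5 in Yap-shRNA. The log2 fold change was -0.07 ± 0.16 (95% interval -0.39 to 0.26). This window is uncertain, because 63.0% of it overlaps the window of the neighbouring transcript Gm11175 and reads in shared stretches are not assigned to either gene. It held 1148 counts over the 6 libraries against 5718 in the peak at its promoter, a ratio of 0.201, where the 7 other members with both had ratios of 0.701 to 1.33.

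Jun (chromosome 4, 95049034 to 95052222), the Jun protein after which the family is named, shares 100% of its window with those of the antisense transcript Junos. Of 1529 genes whose windows are wholly shared, 3 have a row (0.196%), against 94.9% of 41106 genes whose windows are not shared. The peak across its start, chr4:95049663-95054204, is wider than 99.6% of all peaks. It held 179, 169 and 205 CPM in LacZ-shRNA and 191, 157 and 150 in Yap-shRNA. Of the Yap-shRNA libraries, 2 lay below the controls and 1 among them, with a log2 fold change of -0.16 ± 0.14 (95% interval -0.44 to 0.13), and its counts include the start of Junos.

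Among the partners, Atf3 (chromosome 1, 191170296 to 191218039) held 60.6, 70.5 and 82.3 CPM in LacZ-shRNA and 68.0, 64.2 and 66.4 in Yap-shRNA. The log2 fold change was -0.11 ± 0.14 (95% interval -0.38 to 0.16), and the Yap-shRNA libraries again sat within the controls.

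Maff (chromosome 15, 79346621 to 79359076) held 34.7, 48.7 and 51.6 CPM in LacZ-shRNA and 44.2, 49.997 and 49.6 in Yap-shRNA. The log2 fold change was 0.09 ± 0.14 (95% interval -0.20 to 0.38), with LacZ-shRNA replicate 1 well below the other 5 libraries.

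Egr1 (chromosome 18, 34859823 to 34864984) held 85.6, 103 and 121 CPM in LacZ-shRNA and 94.7, 93.2 and 93.6 in Yap-shRNA. The Yap-shRNA libraries spread over an SD of 0.778 CPM around 93.9, against 17.5 around 103 in the controls, and the log2 fold change was -0.14 ± 0.14 (95% interval -0.42 to 0.14).

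**Figure D2:**
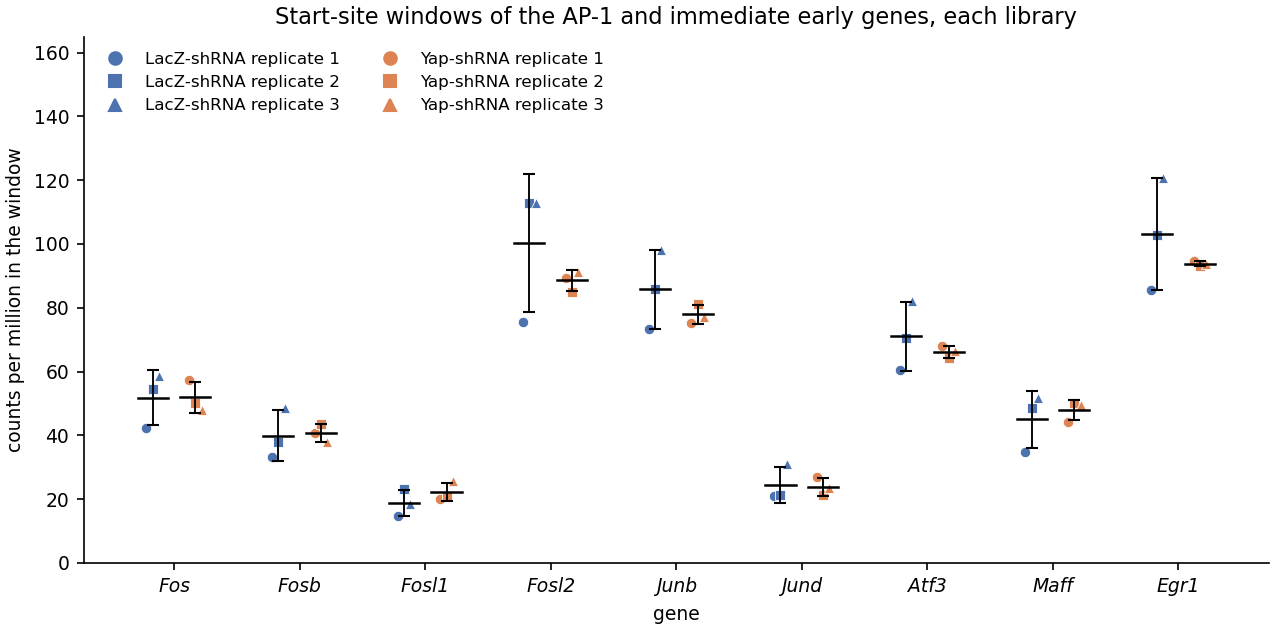
CPM in the start-site window of each member (y axis, linear from 0) by gene (x axis), with a point for each library, a bar at the group mean and error bars of 1 SD (n = 3). LacZ-shRNA replicate 1, the blue circle, is the lowest of the 6 libraries at each of the 9 genes, and the Yap-shRNA libraries lie closer together than the controls.

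The spread was larger in LacZ-shRNA than in Yap-shRNA at 9 of 9 members, and LacZ-shRNA replicate 1 was the lowest of the 6 libraries at 9 of 9, while LacZ-shRNA replicate 3 was the highest at 8. The same library order was common elsewhere. Among the 2463 windows at 12.05 CPM per kb or more, the level computed for Jund over its whole window, LacZ-shRNA replicate 1 was the lowest in 65.2%, LacZ-shRNA replicate 3 the highest in 60.0%, and the control SD the larger in 92.4%. Over all 49366 windows these shares were 28.9%, 14.8% and 78.1%. The library with the fewest counts, LacZ-shRNA replicate 2 at 3326803, was the lowest at 0 of the 9 members and in 5.16% of the 2463, and LacZ-shRNA replicates 1 and 3 had 5431766 and 8964441 counts.

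The direction of the median, and of 6 of the 9 windows, changed with the library left out, while Fosl1 stayed above 0 and Fosl2 and Junb below it. Without LacZ-shRNA replicate 1 the median log2 fold change of the 9 windows was -0.20, with 8 of 9 below 0, and without LacZ-shRNA replicate 3 it was 0.12, with 2 of 9 below 0. The 2463 windows at 12.05 CPM per kb or more, a level that Fosl1 does not reach, moved with them, with medians of -0.17 and 0.05. The medians over all windows were 0.00 and -0.01. No member window passed the adjusted threshold under either. An unadjusted p under 0.05 was found for 0 of the 9 with all libraries, 0 without LacZ-shRNA replicate 3, 4 without LacZ-shRNA replicate 1 (Fosl2, Egr1, Junb and Atf3, each lower), where 6.91% of all windows and 35.2% of the 2463 had one, and 6 without LacZ-shRNA replicates 1 and 2 together, where the shares were 9.88% and 44.1%.

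**Figure D3:**
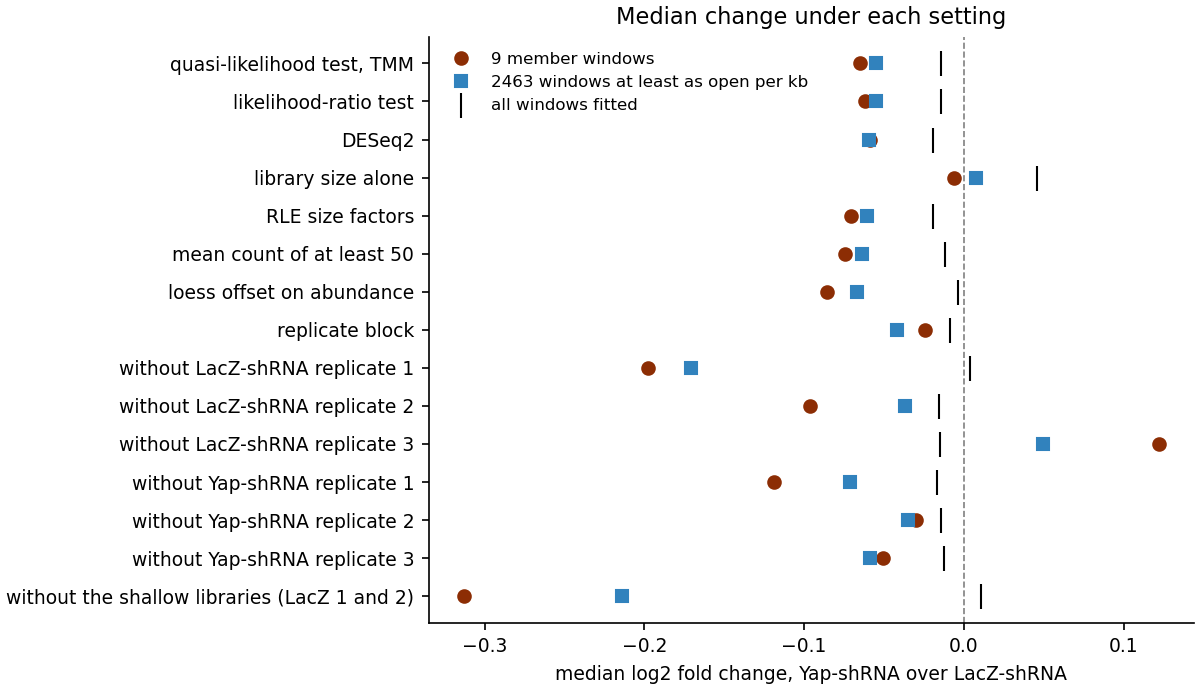
Median log2 fold change of Yap-shRNA over LacZ-shRNA (x axis) under each setting of the comparison (y axis), for the 9 member windows, for the 2463 windows at 12.05 CPM per kb or more, and for all windows fitted. The member median is -0.07 in the top row, lies at -0.20 without LacZ-shRNA replicate 1 and at 0.12 without LacZ-shRNA replicate 3.

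Peaks gave a second reading of the same loci. Of 36097 peaks, 49 lay within 50 kb of an annotated start of a member, from 1 for Jun to 11 for Fosb, and 10 of them lay within 1 kb of a member's start. Of the other 39, 25 were at the start of another gene and 14 were not within 1 kb of any start. Of the 49, 1 passed an adjusted p of 0.05 (2.04%), against 0.618% of all peaks. An unadjusted p under 0.05 was found for 4, against 8.9% of all peaks, and in 5 the groups did not overlap, against 13.3%. The median log2 fold change of the 49 was 0.04, against 0.00 over all peaks.

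None of the 10 promoter peaks passed either threshold, and their log2 fold changes ran from -0.16 at Jun to 0.19 at Maff. The Maff peak held 34.8, 48.8 and 52.0 CPM in LacZ-shRNA and 48.4, 56.6 and 50.8 in Yap-shRNA (95% interval -0.08 to 0.46). The Jund peak, which also spans the start of Gm11175, held 169, 175 and 198 CPM in LacZ-shRNA and 170, 169 and 156 in Yap-shRNA (-0.13 ± 0.14). The Fos peak held 88.7, 106 and 107 CPM and 115, 108 and 96.9 (0.09 ± 0.13). At these 3 genes the groups overlapped.

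The Egr1 peak held 121, 124 and 144 CPM in LacZ-shRNA and 122, 129 and 126 in Yap-shRNA (-0.05 ± 0.13). The Junb peak held 107, 110 and 121 CPM and 101, 114 and 104 (-0.08 ± 0.13). The Fosl2 peak held 93.9, 115 and 123 CPM and 106, 104 and 103 (-0.09 ± 0.13). The Yap-shRNA libraries lay inside the range of the controls at Egr1 and Fosl2 and overlapped it at Junb. The Atf3 peak held 72.8, 73.5 and 84.8 CPM and 74.0, 72.8 and 70.3 (-0.10 ± 0.12), and it covers the start used by the shorter transcripts, not the longest one. The larger Fosb peak held 49.8, 52.7 and 57.0 CPM and 57.3, 59.2 and 53.8 (0.09 ± 0.12). The smaller held 23.3, 26.3 and 28.7 and 25.8, 30.4 and 27.1 (0.08 ± 0.14).

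**Figure D4:**
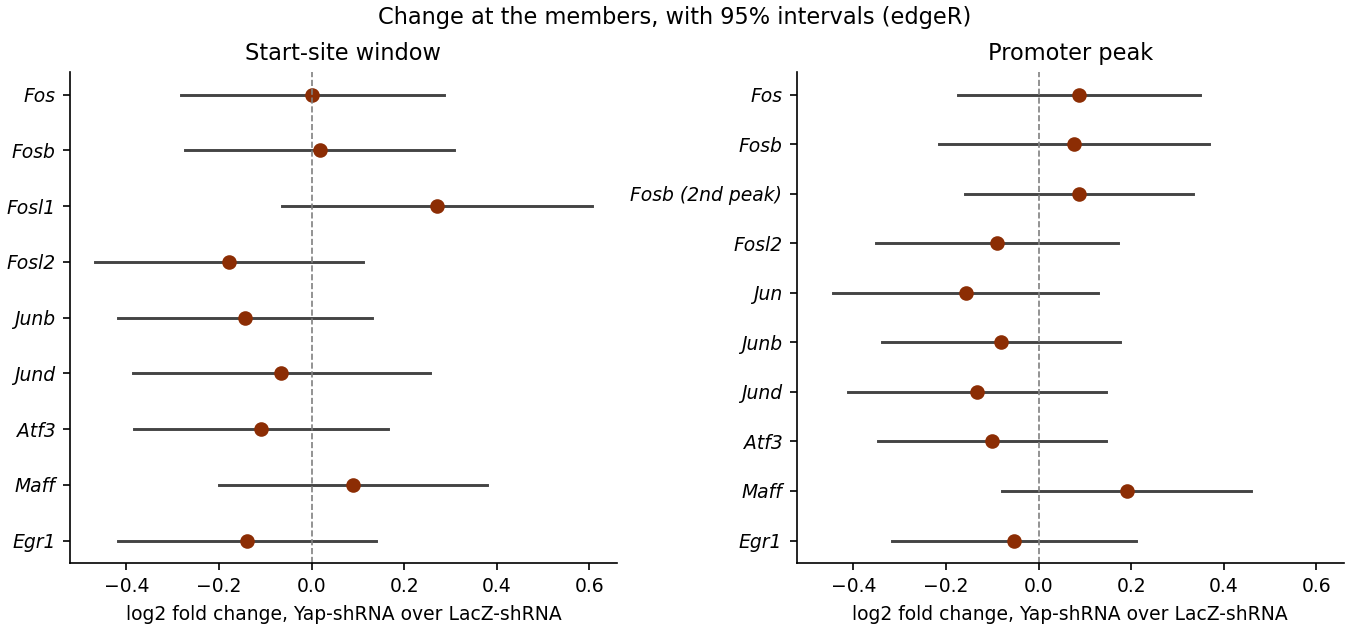
Log2 fold change of Yap-shRNA over LacZ-shRNA (x axis; points) with its 95% interval (lines) for each member (y axis), at the start-site window on the left and at the promoter peak on the right. Each of the 9 window intervals and 10 peak intervals includes 0, with the furthest estimates at Fosl1 (0.27) and Fosl2 (-0.18) among windows.

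The one called peak lay upstream of Fosl2. It is 938 bases wide, at chr5:32086384-32087321 between genes, 48.5 kb upstream of the nearest Fosl2 start. The 300 bases at its centre, chr5:32086703-32087002 on the plus strand, are shown as the one called region, and no searched motif lies within them.

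Fosl2 upstream peak: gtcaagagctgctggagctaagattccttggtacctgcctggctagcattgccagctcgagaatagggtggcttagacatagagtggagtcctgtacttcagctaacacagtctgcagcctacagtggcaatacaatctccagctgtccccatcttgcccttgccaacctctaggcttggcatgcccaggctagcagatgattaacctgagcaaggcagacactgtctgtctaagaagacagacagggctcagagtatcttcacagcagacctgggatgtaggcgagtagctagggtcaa

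The whole peak held no AP-1 palindrome, TEAD element or CArG box and 1 short CRE, which begins 1 base before the stretch shown. It held 29.8, 37.4 and 30.9 CPM in LacZ-shRNA and 21.0, 22.0 and 22.3 in Yap-shRNA. The libraries of the groups did not overlap, and the peak fell by 0.57 ± 0.14 on the log2 scale (95% interval -0.86 to -0.28), to 0.675-fold, with an adjusted p of 0.0484 in edgeR. The call is at the edge of the threshold. It was kept by the likelihood-ratio test and with RLE size factors and lost under each of the other alternatives, with adjusted p up to 0.233, while the estimate stayed between -0.62 and -0.43. The other Fosl2 peaks did not pass the test. The one 31.6 kb upstream held 42.7, 51.4 and 55.4 CPM in LacZ-shRNA and 45.2, 51.4 and 49.95 in Yap-shRNA (-0.04 ± 0.13), and the promoter peak is given with the other promoters. Distance is the only link between the upstream peak and Fosl2.

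**Figure D5:**
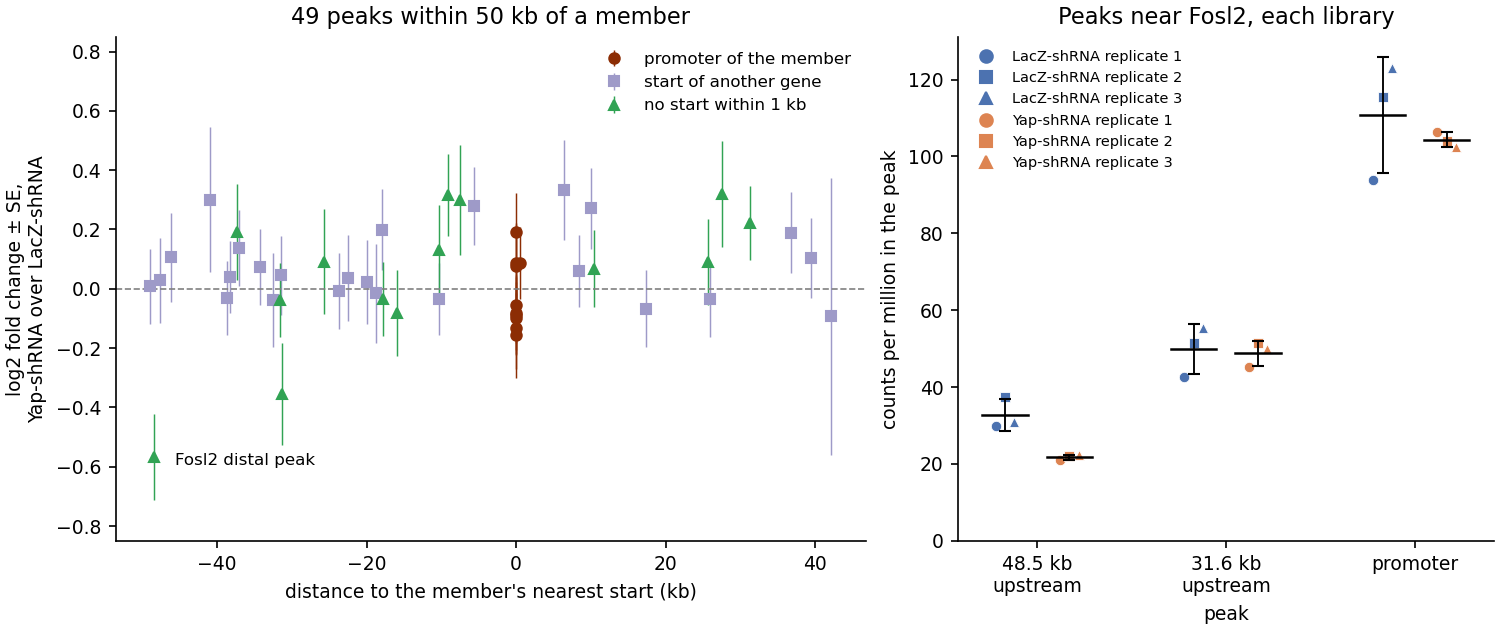
Left, log2 fold change of Yap-shRNA over LacZ-shRNA with its SE (y axis) for the 49 peaks against the signed distance in kb to the nearest start of their member (x axis, upstream negative), by class of peak. Right, CPM of each library (y axis, from 0) in the 3 peaks near Fosl2, with group means and SD (n = 3); the Yap-shRNA libraries are at 21.0 to 22.3 in the peak 48.5 kb upstream, below the controls at 29.8 to 37.4.

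The other 3 peaks with an unadjusted p under 0.05 did not pass adjustment. A peak 9.10 kb upstream of Fosb (chr7:19319146-19320508), in an exon of the noncoding transcript D830036C21Rik, held 27.4, 24.2 and 31.4 CPM in LacZ-shRNA and 33.0, 37.9 and 34.7 in Yap-shRNA. Its groups did not overlap and its log2 fold change was 0.32 ± 0.14 (adjusted p = 0.456 in edgeR). A peak 31.4 kb upstream of Jund (chr8:70666987-70667563) held 22.5, 21.7 and 17.4 CPM in LacZ-shRNA and 17.6, 14.5 and 15.1 in Yap-shRNA, with a log2 fold change of -0.35 ± 0.17 (adjusted p = 0.542 in edgeR). The groups of this intergenic peak overlapped at 1 library.

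The third lay 5.65 kb upstream of Atf3 (chr1:191223690-191225319), at the start of the noncoding transcript D730003I15Rik. It held 35.6, 38.2 and 36.4 CPM in LacZ-shRNA and 38.0, 48.9 and 46.3 in Yap-shRNA (0.28 ± 0.13, adjusted p = 0.526 in edgeR). The central 300 bases, chr1:191224355-191224654 on the plus strand, are shown because they hold an AP-1 palindrome and, before it, a short CRE, both in capitals.

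Atf3 upstream peak: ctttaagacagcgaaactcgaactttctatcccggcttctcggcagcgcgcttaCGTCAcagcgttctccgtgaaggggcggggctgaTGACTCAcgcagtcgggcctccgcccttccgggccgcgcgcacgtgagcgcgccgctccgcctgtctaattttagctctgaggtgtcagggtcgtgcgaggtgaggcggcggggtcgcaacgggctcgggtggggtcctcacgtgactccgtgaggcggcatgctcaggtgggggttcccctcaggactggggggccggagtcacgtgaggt

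Over the 46 member peaks whose sequence was searched, the AP-1 palindrome occurred in 17 (37.0%), against 11.7% of 34908 peaks searched. Member peaks are wide, and peaks within 100 bases of the same width held it in 20.02% on average. Among the 9 promoter peaks of members searched, 3 held it, against 29.9% of peaks of like width. The TEAD element occurred in 6 of the 46 (13.0%), against 15.6% of peaks of like width, and the CArG box in 7 (15.2%), against 7.30%. The motifs were chosen after the member promoters were read, so these shares only describe the sequences.

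Genes around AP-1 were counted in wider lists of windows. Of all 49366 windows, 936 were higher and 1484 lower at an unadjusted p under 0.05, together 4.9%. Of 22 dimer partners and other leucine zipper genes with a row, 0 passed the adjusted threshold, 1 was higher and 1 lower at an unadjusted p under 0.05, and the median log2 fold change was -0.03. The higher one, Batf2, a partner of Jun proteins in immune cells, held 12.8, 11.5 and 13.2 CPM in LacZ-shRNA and 16.7, 15.7 and 16.6 in Yap-shRNA (0.36 ± 0.17). Its window is uncertain like that of Jund, because 49.4% of it is shared, and it lay at percentile 32.4 per kb. Of 35 other immediate early genes, 0 passed and 4 were lower at an unadjusted p under 0.05, with a median of -0.09, and 24 of 35 were below 0. Among these Nfil3, a leucine zipper repressor of the circadian system, held 49.2, 64.4 and 76.3 CPM in LacZ-shRNA and 44.7, 48.9 and 46.8 in Yap-shRNA (-0.44 ± 0.14). For comparison, 68.6% of the 35 were below 0, against 52.7% of all windows. Among the 2463 windows at 12.05 CPM per kb or more the share was 66.1%. That share is not a matched background, because some of the 35, such as Zfp36, Csrnp1 and Dusp6, lie under 12.05 CPM per kb. Whether the 35 lean lower than windows of like level was not tested.

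Of 27 genes of the MAP kinase and serum response factor pathways upstream, 0 passed and 2 were higher at an unadjusted p under 0.05. Mrtfa, the actin-regulated coactivator of serum response factor, held 65.7, 94.8 and 82.7 CPM in LacZ-shRNA and 98.9, 96.3 and 106 in Yap-shRNA (0.32 ± 0.14). Rps6ka1, a kinase activated by ERK, held 55.9, 63.1 and 67.0 CPM and 70.6, 71.6 and 84.5 (0.28 ± 0.13). Of the windows of Mrtfa and Rps6ka1, 16.2% and 21.6% are shared with other genes. Of 16 genes known as AP-1 targets, 0 passed either threshold and 8 were below 0, with a median of 0.00. Over the 4 lists, 8 of 100 windows had an unadjusted p under 0.05, where 4.9% of all windows did. Of the 8, 3 were higher and 5 lower, and 4 of the 5 lower ones were among the 35 other immediate early genes. In 10 of the 100 the groups did not overlap, against 10.1% of all windows.

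Of the 59 windows of the cell type lists, 0 passed, 6 had an unadjusted p under 0.05 (against 4.9% of all windows) and in 5 the groups did not overlap (against 10.1%). The median log2 fold change was 0.21 over the fibroblast list, with 5 of 9 above 0, and 0.18 over the leukocyte list, with 6 of 9 above 0. It was -0.01 over the endothelial list, with 4 of 8 above 0, -0.02 over the satellite cell list, with 3 of 8 above 0, 0.01 over the 6 smooth muscle windows, 0.04 over the 5 Schwann cell windows and -0.09 over the muscle fibre list, with 4 of 14 above 0. The 5 with groups apart and an unadjusted p under 0.05 were Kdr of endothelial cells (-0.59 ± 0.17), Pi16 and Col1a1 of fibroblasts (0.42 ± 0.15 and 0.39 ± 0.14), Csf1r of macrophages (0.32 ± 0.14) and Calcr of satellite cells (-0.37 ± 0.16). Others of the same lists had estimates of the opposite sign, such as Pecam1 at 0.16, Dcn at -0.26, Ptprc at -0.30 and Cdh15 at 0.13, and Col3a1 of fibroblasts was at 0.34 with groups that overlapped; these were named after their values were seen.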

How the data were processed

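ATAC-seq reads had been mapped by the authors to GRCm38, and per the labels' processing notes the tools were BWA 0.7.17, SAMtools 1.8, MACS 1.4.2-1 and featureCounts 1.5.0. The deposited values are whole-number counts per window and per peak, not normalized. The authors merged peaks seen in more than 1 library, and no row has a mean count under 10. Whether counts are of reads or fragments is not given in the sources used here.

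The members and gene lists were chosen with earlier results of these data known, and the motifs and the 350-base search length after the promoters were read. All members are named. Of the wider lists, at most 5 genes were named, by smallest p among those with an unadjusted p under 0.05 and groups that do not overlap. Of peaks, the promoter peaks and those with an unadjusted p under 0.05 were named.

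Both tables were fitted whole with edgeR 4.0.16 in R 4.3.3 (quasi-likelihood test, TMM factors, no covariate, Benjamini-Hochberg adjustment at 0.05). The script was tested on simulated data. Levels are TMM-normalised CPM. Log2 fold changes are Yap-shRNA over LacZ-shRNA, and intervals are 95%. Windows were read as reaching 1 kb either way from each start that GENCODE M21 gives a gene. Where no other window overlapped, the window held 0.95 or more of its inner peaks' counts in 99.98% of 5736 windows, and where one did, in 49.2% of 3964. Distances are to the nearest annotated start. Sequences came from RefSeq on GRCm38.p6, without chromosome 18. The fit was repeated with likelihood ratios, in DESeq2 1.42.0, with library size alone, RLE size factors, a mean count of 50 or more, a loess offset on abundance (span 0.3), a replicate block and leaving out each library. Leaving out LacZ-shRNA replicates 1 and 2 together was chosen after seeing the data. Member windows held 66 to 1059 counts per library.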

Additional observations from a re-analysis of the deposited data

How the results depend on the processing

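No member window passed the threshold under any of the alternatives run (0 of 9 in each, or of 8 in DESeq2, which gave Fosl1 no adjusted p). The windows of Fosl1, Fosl2 and Junb kept their sign in each, and with 1 library left out ranged from 0.13 to 0.40, -0.35 to -0.07 and -0.26 to -0.02. The median log2 fold change of the 9 windows stayed between -0.20 and 0.12 when 1 library was left out, was -0.31 without LacZ-shRNA replicates 1 and 2, where the lone control is assumed to vary like the other libraries, and otherwise differed from -0.07 by less than the spread between replicates. The number of member peaks called was 1 with the likelihood-ratio test and RLE size factors and 0 in DESeq2, with library size alone, a mean count of 50 or more, the loess offset, the replicate block, each library left out in turn and both shallow libraries left out.

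Whether pools with the same number came from the same mice is not known, and the replicate numbers were not taken to pair the samples. Deviations from the group means of same-numbered libraries correlated at 0.17, -0.17 and 0.09 across windows and at 0.01, -0.18 and -0.20 across peaks. LacZ-shRNA replicate 2 with Yap-shRNA replicate 3 gave 0.24 and 0.20, and LacZ-shRNA replicate 3 with Yap-shRNA replicate 2 gave 0.03 and 0.19. With the replicate block the member windows stayed at 0 calls and the median at -0.02, and the Fosl2 upstream peak was at -0.57 (adjusted p = 0.0613 in edgeR), with 207 peaks called against 223.

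Estimates of uncalled features that changed sign were these. With the loess offset, Fosb was at -6.4e-06 and Fos at -0.010 among windows and the Egr1 peak at 0.038. Fos was at -0.0034 with DESeq2, -0.0038 with RLE size factors and -0.0057 where the mean count was 50 or more. With library size alone, the promoter peaks of Atf3, Egr1, Fosl2, Jund and Junb were at 0.042, 0.089, 0.053, 0.011 and 0.063, on a scale that moves the median of all peaks to 0.14. Without LacZ-shRNA replicates 1 and 2, the windows of Fosb, Fos and Maff were at -0.25, -0.18 and -0.11, the Maff peak at -0.0015, and the Fosb peaks at -0.0050 and -0.047. With 1 library left out, the ranges were -0.12 to 0.22 for the Fosb window, -0.14 to 0.12 for Fos, -0.23 to 0.023 for Atf3, -0.27 to 0.0014 for Egr1, -0.077 to 0.23 for Maff and -0.20 to 0.18 for Jund, and among promoter peaks -0.10 to 0.035 for Egr1, -0.20 to 0.0055 for Fosl2 and -0.0031 to 0.18 for the smaller Fosb peak. The cause was not tested. Calls over all windows, 11 in the comparison reported, ran from 4 to 157 with 1 library left out, were 33 for likelihood ratios, 20 in DESeq2, 29 under the loess offset and 261 without LacZ-shRNA replicates 1 and 2. Calls over all peaks, 223 in the comparison reported, ran from 94 to 447 with 1 library left out, and were 378 for likelihood ratios, 116 in DESeq2, 136 where the mean count was 50 or more and 143 under the loess offset. With library size alone they were 229, of which 124 were higher, against 17 of 223.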
